A study of Mus musculus with 16 samples.

Results

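The MHC class II presentation genes followed here are 10 mouse genes that make, load or switch on class II molecules, and they were chosen by name from the gene names printed in the array files. The rule used no measured value, but earlier results of these data were known when it was made. They had 14 of the 55681 non-control probes of the array, and 12 of the 14 probes and all 10 genes passed the filter on dim signals, among 22000 genes tested. RNA from 16 biopsies of mouse melanoma was compared with a pooled mouse reference RNA on 2-colour Agilent arrays, and each value is the log2 ratio of the tumour channel (Cy5) over the reference channel (Cy3). There were 4 biopsies in each of 4 groups, which were untreated controls, tumours treated for 4 days, tumours treated for 60 days, and resistant tumours treated for 120 days. The series is about inhibitors of the kinase BRAF. The sources used here do not name the drug, the strain, the tumour model or the age of the mice, and nothing in the labels says whether biopsies came from separate animals, so p-values measure only the spread between these samples.

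Class II molecules carry peptides from taken-up proteins to the cell surface for CD4+ T cells. They are made by dendritic cells, B cells and macrophages, and interferon gamma can switch them on in many other cells through the coactivator CIITA. The invariant chain (Cd74) fills the groove of a new class II molecule, cathepsin S (Ctss) cuts that chain, the DM chains (H2-DMa, H2-DMb1) exchange its last piece for a peptide, and the DO chains (H2-Oa, H2-Ob) hold DM back. In whole biopsies, fewer cells of a type and less RNA per cell cannot be told apart.

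CIITA acts through factors that sit on short promoter elements shared by class II genes, and promoter stretches are shown because the genes that carry them are those whose levels are followed below. RefSeq promoter windows of build GRCm38.p6, which span 300 bases around a gene's start, were at hand for 7 of the 10 genes (H2-Aa, H2-Eb1, H2-DMa with 2 windows, H2-DMb1, H2-Oa, H2-Ob and Ctss). Capitals mark the Y box letters TGATTGG, the X box letters AACNNATGA, the cAMP response element TGACGTCA in H2-Aa, and in Ctss GAAANNGAA, a core bound by interferon regulatory factors. These letters were picked after reading these promoters, both strands were searched, and in H2-Eb1, H2-DMb1 and H2-Ob the X box lay before the Y box without overlap. All sequences run 5′ to 3′ in the direction of the gene.
H2-Aa, chr17:34287849-34287914, minus strand: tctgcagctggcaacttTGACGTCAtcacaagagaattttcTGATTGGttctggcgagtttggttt
H2-Eb1, chr17:34305765-34305830, plus strand: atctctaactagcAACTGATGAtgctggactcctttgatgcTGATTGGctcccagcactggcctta
H2-DMb1, chr17:34153089-34153154, plus strand: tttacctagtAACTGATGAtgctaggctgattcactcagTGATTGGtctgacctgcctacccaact
H2-Ob, chr17:34238803-34238868, plus strand: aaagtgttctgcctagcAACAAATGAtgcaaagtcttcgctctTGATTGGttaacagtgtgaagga
H2-Oa, chr17:34092288-34092353, plus strand: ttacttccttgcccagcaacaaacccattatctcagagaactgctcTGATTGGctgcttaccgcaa
Ctss, chr3:95526740-95526785, plus strand: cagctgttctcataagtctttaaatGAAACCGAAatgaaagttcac

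The Y box letters stood in 5 of the 8 windows of these genes and in 7.82% of all 32851 windows of the table. The X box letters stood in 3 of the 8 windows and in 2.85% of all windows. Both together were found in 101 windows (0.307%) of 93 genes, among them H2-DMb1, H2-Eb1, H2-Ob and the further DM beta gene H2-DMb2. The cAMP response element stood in 1.79% and the GAAANNGAA core in 8.56% of all windows. Neither H2-DMa window held any of the 4 motifs in these letters. A match of letters is a description and not a measured binding site.

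The probes set what the values can show. H2-Ab1 had 2 bright probes on overlapping stretches of chromosome 17 (34406296 to 34406355 and 34406305 to 34406363, mm9), which share 51 aligned bases and differ at 1 of them, T51C counted from the first base of the earlier probe. Their 30 shared bases around it are shown with that base in capitals because both probes gave nearly the same values.
H2-Ab1, first probe: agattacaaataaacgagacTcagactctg
H2-Ab1, second probe: agattacaaataaacgagacCcagactctg
The Ciita probe is mostly a simple repeat, which need not be particular to this gene. It was above background in Cy5 on 16 arrays and in Cy3 on 8. The dim probes left out were 1 of 2 for H2-DMb1 and 1 of 3 for H2-Ob, which were above background on 0 of 16 arrays. No probe of the 10 genes was saturated on any array.

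None of the 10 genes passed the test between any pair of groups. In limma with Benjamini-Hochberg adjustment over 22000 genes, 0 of 10 passed an adjusted p of 0.05 in each of the 6 comparisons, 0 of 10 had an unadjusted p below 0.05, and the ranges of the groups overlapped for every gene in every comparison. Over all genes, the shares called were 1.34% (295 genes) for 4-day against untreated tumours, 0.818% (180) for 60-day against untreated and 0.0182% (4) for resistant against untreated. They were 0.00455% (1) for resistant against 4-day tumours, 0% for resistant against 60-day and 0% for 60-day against 4-day. With such shares, 0 of 10 is close to what the whole table gives.

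Unadjusted p-values below 0.05 were counted over all genes as well. They made up 16.7% of all genes for 4-day against untreated tumours, 18.7% for 60-day against untreated, 9.54% for resistant against untreated, 8.19% for resistant against 4-day, 5.68% for resistant against 60-day and 1.88% for 60-day against 4-day. In the same order, the ranges of the groups did not overlap for 7%, 13.8%, 4.29%, 2.77%, 3.62% and 1.68% of all genes. With only 10 genes, many of which varied together, 0 of 10 cannot be set apart from any of these shares.

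The classical chains form the class II molecules themselves. H2-Aa, the alpha chain of the A molecule, had log2 ratios of 5.09, 4.68, 4.72 and 4.21 in untreated tumours, 4.55, 5.09, 4.53 and 3.88 at 4 days, 4.77, 5.30, 4.36 and 4.33 at 60 days, and 3.81, 3.42, 4.64 and 4.35 in resistant tumours. The lowest values were those of resistant replicates 1 and 2, while the other resistant tumours lay within the range of the untreated ones. The difference of resistant from untreated tumours was -0.62 ± 0.31 (SE, adjusted p = 0.551), with -1.26 on slide 2 and 0.03 on slide 1. With the scanner software's processed signals the direction turned, and the difference was 0.50 (adjusted p = 0.752). The Cy3 signal of this probe was above background on 12 of 16 arrays. Its log2 Cy3 was 5.93 and 5.67 in resistant replicates 1 and 2, and 5.93 in 4-day replicate 1. The 2 probes of these genes that were never above background had mean log2 intensities of 5.94 and 6.05. The ratios of H2-Aa on such arrays therefore rest on a reference signal near the floor, and their size is uncertain.

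H2-Ab1, the beta chain of the A molecule, had 4.13, 4.16, 3.11 and 3.45 in untreated tumours, 3.85, 4.43, 3.36 and 3.00 at 4 days, 4.08, 4.05, 3.13 and 3.20 at 60 days, and 3.89, 4.27, 3.17 and 3.80 in resistant tumours. In each group the first 2 values lay above the other 2, and these are the arrays of slide 2. H2-Eb1, the beta chain of the E molecule, had 3.22, 3.10, 2.59 and 2.73 in untreated tumours, 2.90, 3.35, 2.77 and 2.39 at 4 days, 3.18, 3.23, 2.69 and 2.63 at 60 days, and 2.85, 3.08, 2.61 and 3.01 in resistant tumours. Its slides differed in the same direction, and its groups overlapped almost fully. The group means ranged over 0.16 for H2-Ab1 and 0.08 for H2-Eb1, against pooled SDs within groups of 0.53 and 0.31. H2-Eb2, a further beta chain outside the 10, differed by -0.38 ± 0.18 between resistant and untreated tumours (adjusted p = 0.514), and the H2-DMb2 probe was above background on at most 3 arrays.

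Cd74, the invariant chain, had 3.21, 2.56, 3.36 and 2.38 in untreated tumours, 2.29, 3.35, 3.06 and 2.41 at 4 days, 2.57, 3.30, 2.32 and 3.00 at 60 days, and 1.65, 1.48, 3.23 and 2.86 in resistant tumours. Resistant replicates 1 and 2 were the lowest of all 16 arrays, and the other resistant tumours lay among the untreated ones. The difference of resistant from untreated tumours was -0.57 ± 0.39 (adjusted p = 0.696), with -1.32 on slide 2 and 0.17 on slide 1. Ctss, the protease that trims the invariant chain, had 2.22, 1.62, 2.63 and 1.50 in untreated tumours, 0.45, 2.29, 1.95 and 0.17 at 4 days, 0.75, 2.23, 0.31 and 0.59 at 60 days, and 2.56, 1.63, 1.62 and 0.89 in resistant tumours. The treated groups held both high and very low arrays, and no untreated array was below 1.50. Ctss spread over 5.51-fold across arrays, the widest of the 10. Its 60-day tumours averaged 0.97 ± 0.86 and the untreated tumours 1.99 ± 0.53 (SD, n = 4 each), a difference of -1.02 ± 0.52 (SE, adjusted p = 0.315 in limma), with -0.43 on slide 2 and -1.62 on slide 1.

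The DM chains edit the peptides. H2-DMa had 2.12, 1.09, 2.38 and 1.09 in untreated tumours, 0.89, 1.43, 1.48 and 0.94 at 4 days, 1.04, 1.93, 1.08 and 1.32 at 60 days, and 0.47, 0.31, 2.01 and 1.26 in resistant tumours. Its partner H2-DMb1 had 3.31, 2.92, 3.29 and 2.46 in untreated tumours, 2.25, 3.43, 2.35 and 2.32 at 4 days, 2.52, 3.39, 2.27 and 2.66 at 60 days, and 2.19, 2.15, 2.93 and 2.55 in resistant tumours. Both were lowest in resistant replicates 1 and 2, and among the untreated tumours replicate 4 was at or near the bottom for both. Resistant tumours differed from untreated ones by -0.66 ± 0.38 for H2-DMa (adjusted p = 0.628) and by -0.54 ± 0.30 for H2-DMb1 (adjusted p = 0.614). Within slides the differences were -1.21 on slide 2 and -0.10 on slide 1 for H2-DMa, and -0.95 and -0.13 for H2-DMb1.

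The DO chains restrain DM. H2-Oa had 0.28, 0.28, 0.94 and 0.36 in untreated tumours, -0.20, 0.57, 0.18 and -0.12 at 4 days, 0.26, 0.51, 0.27 and 0.43 at 60 days, and -0.17, -0.04, 1.00 and 0.34 in resistant tumours. H2-Ob had 0.66, 0.48, 1.11 and 0.60 in untreated tumours, 0.65, 0.60, 0.60 and 0.76 at 4 days, 0.73, 1.06, 0.98 and 0.70 at 60 days, and 0.23, 0.36, 1.19 and 0.47 in resistant tumours. For both genes resistant replicate 3 was the highest array and resistant replicate 1 at or near the bottom, so the resistant group spanned most of the range of all 16 arrays. A second H2-Ob probe, above background on 13 arrays, ranged between 0.12 and 1.55, with its lowest value in resistant replicate 1 and its highest in resistant replicate 3. H2-Oa differed by -0.36 ± 0.24 between 4-day and untreated tumours (adjusted p = 0.51), with -0.09 on slide 2 and -0.62 on slide 1. With the scanner software's processed signals it was -0.61 (adjusted p = 0.549).

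Ciita, the coactivator that switches the class II genes on, had 1.25, 1.20, 1.91 and 0.54 in untreated tumours, 0.73, 1.51, 0.73 and 0.50 at 4 days, 1.13, 1.77, 0.76 and 0.59 at 60 days, and 0.46, 0.44, 1.16 and 0.61 in resistant tumours. Resistant replicates 1 and 2 were again the lowest arrays, and untreated replicate 4 lay only slightly above them. The resistant tumours averaged 0.66 ± 0.34 and the untreated tumours 1.22 ± 0.56 (SD, n = 4 each), a difference of -0.56 ± 0.31 (SE, adjusted p = 0.611 in limma), with -0.78 on slide 2 and -0.34 on slide 1. From the log2 ratios of the authors' deposited table the difference was -1.14 (adjusted p = 0.781), and at 4 days it was -0.91, against -0.36 here.

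**Figure D1:**
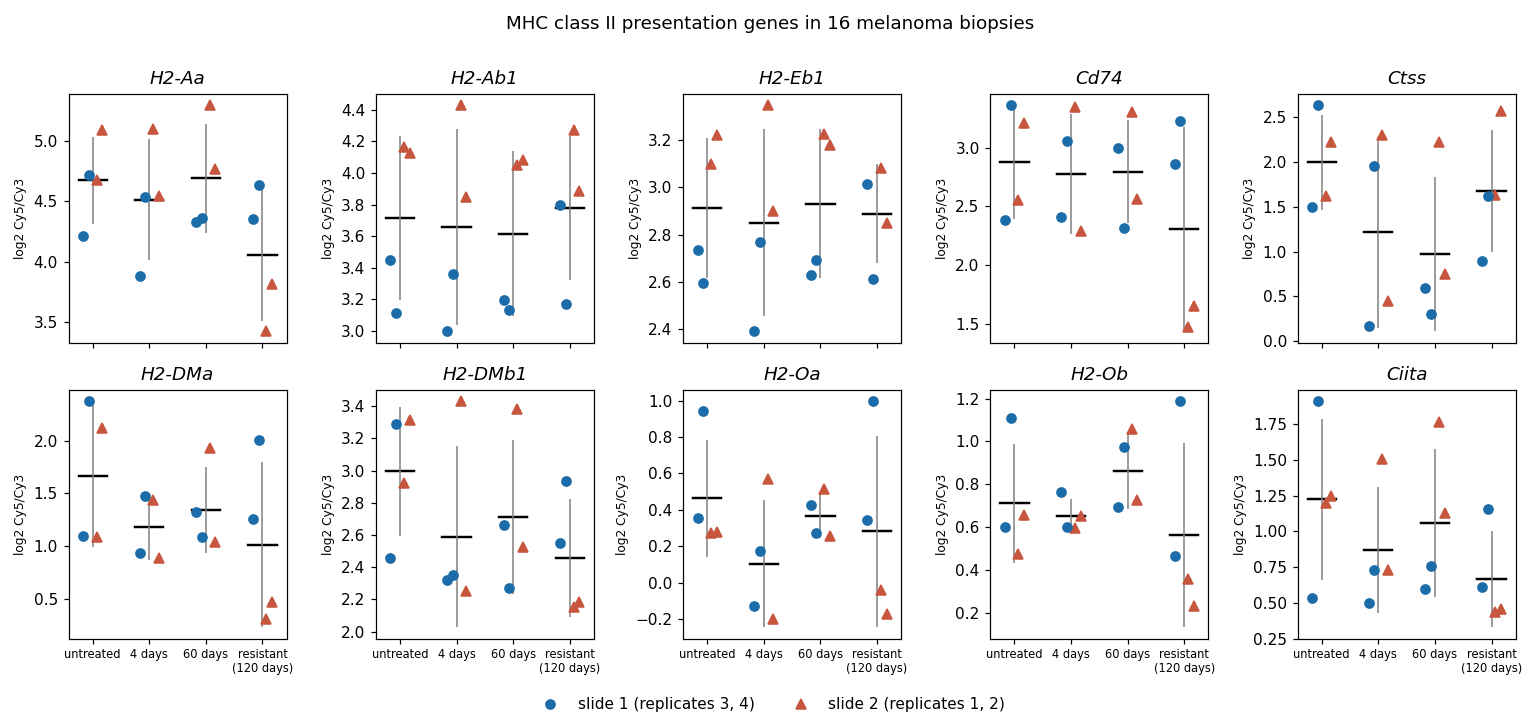
Log2 Cy5 over Cy3 (vertical axes) of the 10 genes in 4 groups of 4 arrays (horizontal axes), with the mean as a black line, the SD as a grey line, circles for slide 1 and triangles for slide 2. The resistant tumours on slide 2 are at the bottom for H2-Aa (3.81 and 3.42) and Cd74 (1.65 and 1.48), and every slide 2 value of H2-Ab1 lies above every slide 1 value.

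By group means, the order was resistant, 4-day, 60-day, untreated (low to high) for Cd74, H2-DMa, H2-DMb1 and Ciita. It was resistant, 4-day, untreated, 60-day for H2-Aa and H2-Ob. The other 4 genes differed in order. H2-Ab1 ran 60-day, 4-day, untreated, resistant, H2-Eb1 ran 4-day, resistant, untreated, 60-day, H2-Oa ran 4-day, resistant, 60-day, untreated, and Ctss ran 60-day, 4-day, resistant, untreated. No neighbours in any of these orders differed beyond the spread within groups, and group explained between 1.24% (H2-Eb1) and 28.5% (H2-Aa) of a gene's variance over arrays. The difference of 4-day from untreated tumours was below 0 for 10 of 10 genes, with a median of -0.26, while 51.3% of all genes were below 0, with a median of -0.01. At 60 days 7 of 10 genes were below untreated tumours, with a median of -0.10, against 49.8% of all genes. In resistant tumours 9 of 10 were below untreated tumours, with a median of -0.43, against 47.8% of all genes and a median of 0.01. These 3 comparisons share the same untreated tumours. For resistant against 60-day tumours 8 of 10 genes were below 0 (median -0.28, 50.6% of all genes), for resistant against 4-day 6 of 10 (median -0.11, 48.1%), and for 60-day against 4-day 2 of 10 (median 0.14, 45.5%).

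The intervals give the precision of the ratio. For H2-Eb1, the tightest of the classical chains, the 95% confidence interval of the resistant over untreated ratio was 0.719 to 1.35-fold. For Cd74 it was 0.376 to 1.2-fold and for Ctss 0.369 to 1.75-fold. A fall of Cd74 to below 0.5-fold in resistant tumours therefore lay within its interval. These intervals hold for the ratio alone and do not bound the difference in the tumour channel, where H2-Eb1 differed by -0.89 on the log2 scale, outside its interval.

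**Figure D2:**
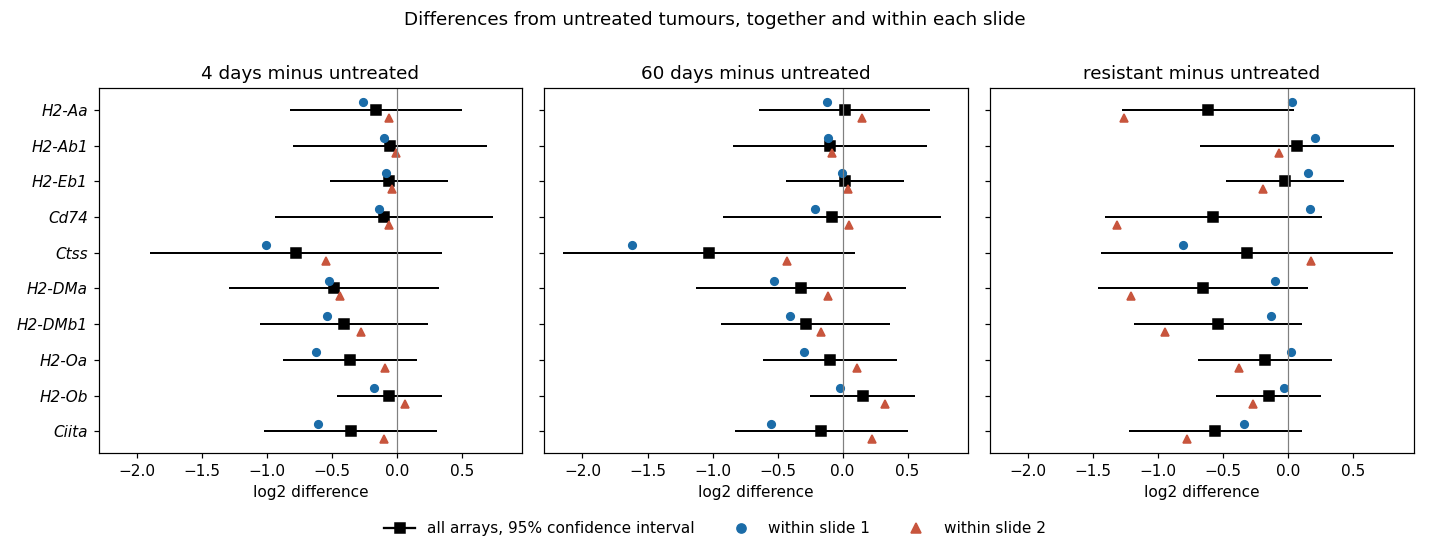
Log2 differences from untreated tumours (horizontal axes) for the 10 genes (rows) at 4 days, at 60 days and in resistant tumours. Squares with lines are limma estimates with 95% confidence intervals over 4 against 4 arrays, and circles and triangles are the differences within slide 1 and slide 2, which part widely for Cd74 in resistant tumours (0.17 and -1.32).

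The arrays lay on 2 slides, with 2 arrays of each group on each. The sign was the same on both slides for 9 of 10 genes between 4-day and untreated tumours, for 4 of 10 between 60-day and untreated tumours and for 4 of 10 between resistant and untreated tumours. It was the same for 1 of 10 between resistant and 4-day tumours, 3 of 10 between resistant and 60-day tumours and 7 of 10 between 60-day and 4-day tumours. The share over all genes was not counted. Many of the 10 genes varied together over the same arrays, so these counts are not independent agreements. The resistant replicates on slide 2 carry the title code RG4 and those on slide 1 the code RG5. Slide and code therefore cannot be told apart there. The same holds at 60 days, with RG6 on slide 2 and RG7 on slide 1. The 4-day titles carry STS and the untreated titles RG9 or RG10. No code was shared between groups, so group and code cannot be told apart in any comparison. The sources used here do not say what the codes stand for. Resistant replicate 1 also lay farthest out on the leading principal component of all genes (91.2, against -51.4 to 57 for the other arrays). Without it, the median resistant minus untreated difference of the 10 genes was -0.40, against -0.43 with it, and that of Cd74 was -0.36 (adjusted p = 0.782). Without resistant replicate 2 these values were -0.30 and -0.30 (adjusted p = 0.963 for Cd74).

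Slide alone separated H2-Ab1. Its slide 2 arrays averaged 4.11 and its slide 1 arrays 3.28, a difference of 0.83 ± 0.12 (adjusted p = 0.000335 in limma), slide accounted for 79.6% of its variance, and the slides did not overlap, as for 6.07% of all genes. H2-Eb1 differed by 0.43 ± 0.10 between slide 2 and slide 1 (adjusted p = 0.00507), and none of the other 8 genes passed. Of all genes, 28.3% passed the same test between slides, so 2 of 10 is no more than the background. These are differences in the ratio. In single channels, log2 Cy5 on slide 2 minus slide 1 was -0.29 for H2-Ab1 and -0.51 for H2-Eb1. For log2 Cy3 it was -1.12 and -0.94. For both genes the tumour signal was thus lower on slide 2, and the reference signal was lower by more.

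The 2 channels were also read apart. The reference RNA is the same on every array, and the SD of its Cy3 signal over the 16 arrays had a median of 0.11 over all genes tested. For H2-Ab1 that SD was 0.88, for H2-Eb1 0.87 and for H2-Aa 0.60, and only 0.936%, 0.945% and 1.9% of genes varied more. Their Cy3 signals were high on the arrays where the tumour channel was high. Over the 16 arrays the correlation of Cy5 with Cy3 was 0.84 for H2-Ab1, 0.95 for H2-Eb1, 0.83 for H2-Aa and 0.85 for Cd74, against a median of 0.18 and a 90th percentile of 0.68 over all genes. With background-subtracted signals that were not normalized by loess it was 0.92, 0.98, 0.98 and 0.86. The channels of an array share its spots, hybridisation and scan, and why the reference signal moved with the tumour signal was not tested.

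Resistant replicates 1 and 2 had the lowest H2-Ab1 signals of all arrays in both channels. Their log2 Cy5 was 14.02 and 14.03, and the other 14 arrays lay between 14.68 and 16.29. Their log2 Cy3 was 10.13 and 9.76, and the other 14 arrays lay between 11.00 and 13.18. The ratio, which divides one by the other, therefore left these arrays within the range of the rest for H2-Ab1, although they were the lowest in Cy5.

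**Figure D3:**
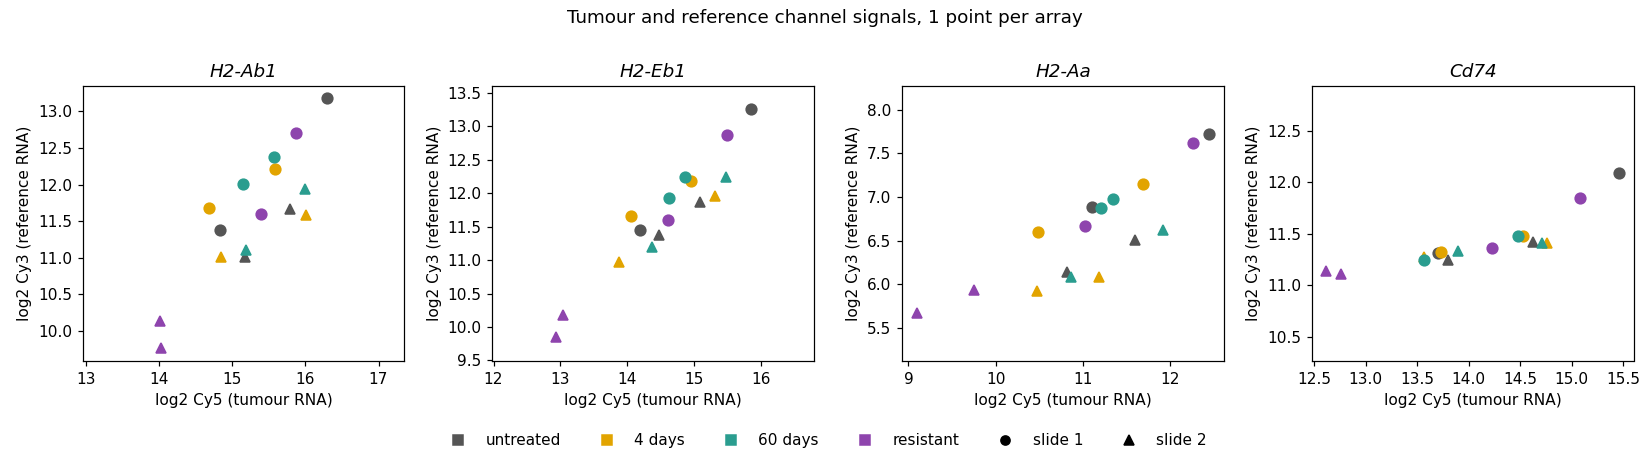
Log2 Cy3 signal of the reference RNA (vertical axes) against log2 Cy5 signal of the tumour RNA (horizontal axes) for H2-Ab1, H2-Eb1, H2-Aa and Cd74, with 1 point per array, coloured by group and shaped by slide. The reference signal climbs with the tumour signal (r = 0.84 for H2-Ab1), and resistant replicates 1 and 2 have the lowest Cy5 signals in each panel.

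Cy5 alone was therefore examined after the data had been seen. In that channel H2-Ab1 averaged 14.83 in resistant and 15.52 in untreated tumours, a difference of -0.70 ± 0.45 (adjusted p = 0.595 in limma), where the ratio gave 0.07. H2-Eb1 differed by -0.89 ± 0.55 (adjusted p = 0.575), where the ratio gave -0.02. For both genes the difference lay on slide 2 (-1.46 and -1.80), with 0.07 and 0.03 on slide 1. The median of the 10 genes was -0.69 between resistant and untreated tumours, with 9 of 10 below 0, -0.44 between 4-day and untreated tumours, with 10 of 10 below 0, and -0.22 between 60-day and untreated tumours, with 9 of 10 below 0. None of the 10 genes was called in Cy5 alone in these 3 comparisons, and the lowest adjusted p was 0.31.

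No group difference passed the test, and most of the genes varied together from array to array. Over the 16 arrays, 7 genes (H2-Aa, Cd74, H2-DMa, H2-DMb1, H2-Oa, H2-Ob and Ciita) correlated with each other in log2 ratio with r between 0.46 and 0.91 (median 0.76 over 21 pairs). With slide means removed the median was 0.81. H2-Ab1 and H2-Eb1 correlated with each other at 0.95 but with the other 8 genes at -0.52 to 0.47. In Cy5 alone these 2 genes joined the rest, with r between 0.30 and 0.97 (median 0.87 over 16 pairs). There H2-Ab1 correlated with Cd74 at 0.97. In Cy3, which holds the same reference RNA on every array, H2-Ab1 correlated with Cd74 at 0.84 and with H2-Aa at 0.91. It correlated with H2-Oa at 0.21 and with H2-Ob at -0.26 in Cy3. The Cy5 correlations therefore cannot be read as shared change in tumour RNA alone, and the cause was not tested. Ctss stayed apart on both scales, with a median r of 0.36 in the ratio and 0.34 in Cy5. The 7 genes were grouped after their values were seen, and arrays share spots, scan and tissue make-up, so these values are descriptions.

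**Figure D4:**
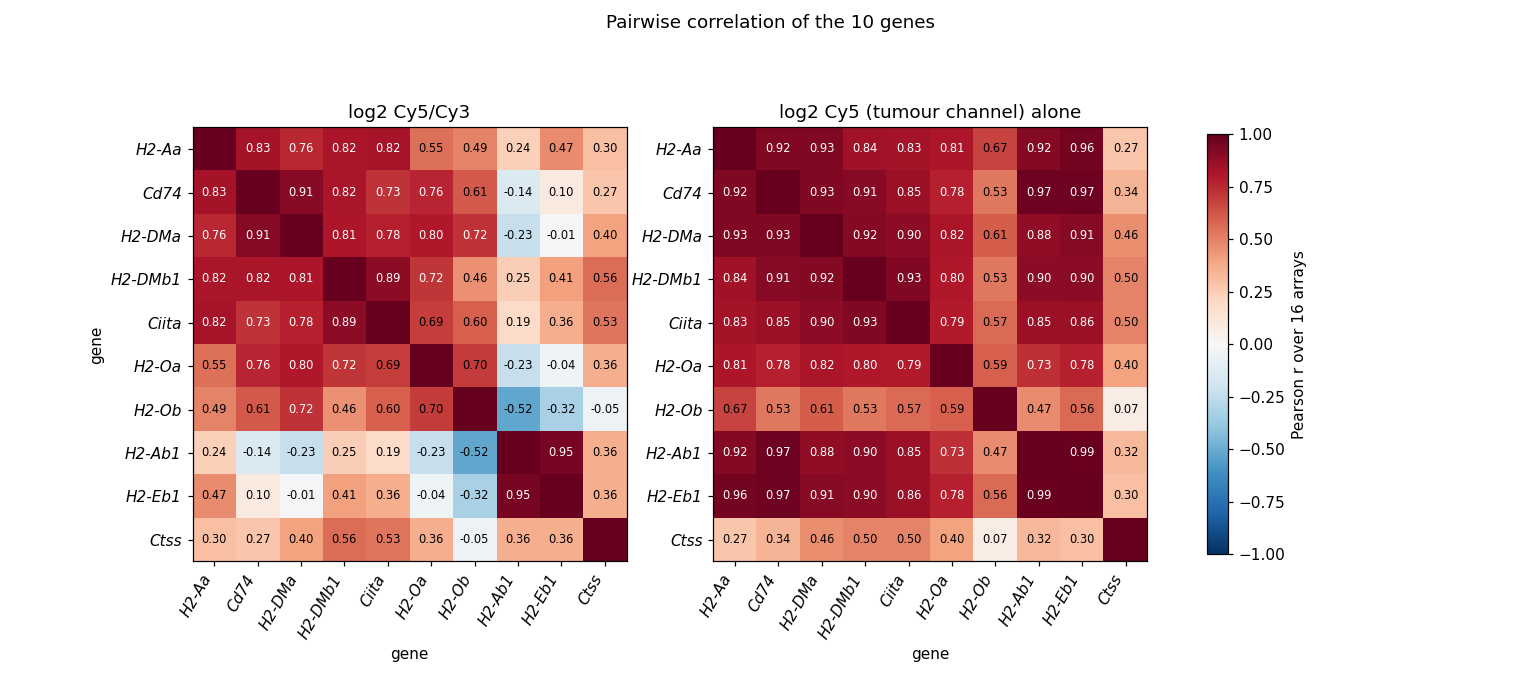
Pearson correlation over 16 arrays for each pair of the 10 genes (rows and columns), in the log2 ratio on the left and in log2 Cy5 alone on the right, from -1 (blue) to 1 (red). H2-Ab1 and H2-Eb1 form a block of their own in the ratio (0.95 with each other) and join the other genes in Cy5, while Ctss stays pale in both.

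The genes outside the 10 whose array pattern was most like the mean log2 ratio of the 10 included lymphoid and dendritic genes. Ms4a4b, a membrane protein of T cells, had r = 0.97, and Cxcr3, the chemokine receptor of activated T cells, had r = 0.97. Next came Ppfia4, a liprin scaffold protein (0.94), Scimp, an adaptor protein of immune cells (0.93), an unnamed transcript and Wdfy1 (0.91). After them came Clec9a, a receptor of cross-presenting dendritic cells (0.90), and a further unnamed probe. Last were Tgtp2, an interferon-induced GTPase (0.89), and Skap1, a T cell adaptor (0.89). All these genes were chosen as the highest of 21519 genes over 16 arrays, of which 71 had r above 0.8. Without the 2 arrays farthest from the median of the mean (60-day replicate 2 and 4-day replicate 2), r was 0.96 for Ms4a4b and 0.95 for Cxcr3.

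Cxcr3 shows the pattern. Its log2 ratios were 2.00, 1.38, 2.21 and 1.19 in untreated tumours, 0.67, 2.17, 1.25 and 0.52 at 4 days, 0.89, 2.26, 0.87 and 1.19 at 60 days, and 0.89, 0.62, 1.95 and 1.29 in resistant tumours. Each group held high and low arrays, with 4-day replicate 2, 60-day replicate 2 and resistant replicate 3 at the top of theirs. The mean of the 10 class II genes was likewise highest in those 3 arrays within their groups, at 2.61, 2.68 and 2.35. None of the 10 most alike genes was called in any comparison, and for Cxcr3 the adjusted p was 0.755 between resistant and untreated tumours.

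**Figure D5:**
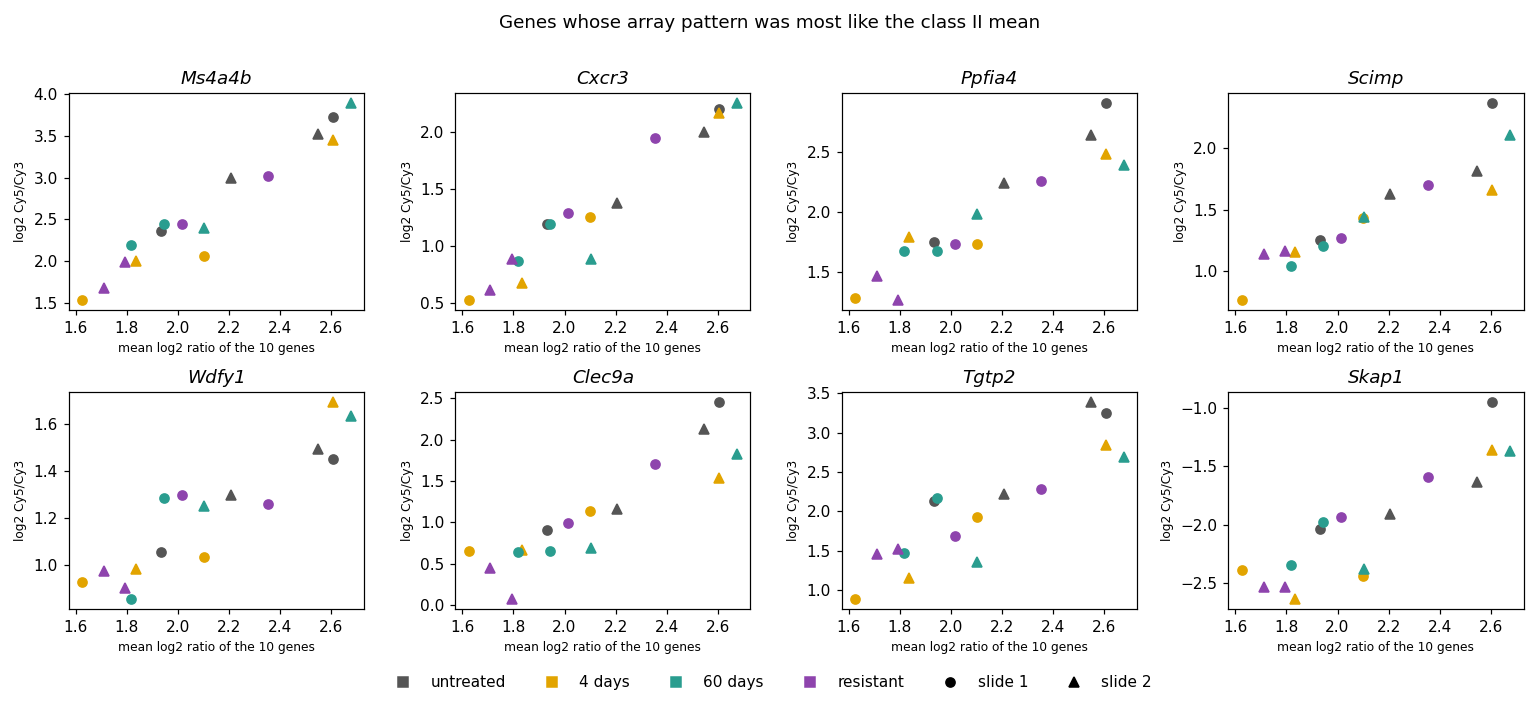
Log2 ratio of the 8 named genes most like the class II mean (vertical axes) against the mean log2 ratio of the 10 class II genes (horizontal axes), with 1 point per array, coloured by group and shaped by slide. The points follow the class II mean in all groups, with r between 0.89 (Skap1) and 0.97 (Ms4a4b).

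Lists of related genes and of cell types were read beside the 10 genes. The mean of the dendritic cell list (11 of 12 genes tested) had r = 0.93 with the class II mean over the 16 arrays, and costimulation (5 of 6) had r = 0.92. Class I presentation (13 of 13) had 0.83, T cells (8 of 10) 0.78, and transcription and interferon gamma (14 of 15) 0.68. The values were 0.39 for all leukocytes (8 of 8), 0.31 for macrophages and monocytes (12 of 14), 0.31 for B cells (6 of 9), 0.08 for melanocytic cells (10 of 10) and -0.14 for class II processing and turnover (11 of 11). They were 0.14 for keratinocytes, 0.07 for fibroblasts, -0.15 for adipocytes, -0.17 for skeletal muscle and -0.29 for endothelium. The summed share of each cell type was not measured, and the part of any of these cells in the class II signal was not tested.

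Of the B cell list, the transcription factor Pax5 was above background on 0 of 16 arrays, the antigen receptor chains Cd79a and Cd79b on 16, Cr2 on 14 and Ms4a1 on 9. The dendritic list averaged between 0.88 and 1.68 in resistant tumours and between 1.26 and 1.86 in untreated tumours. Its brightest genes were Siglech, a receptor of plasmacytoid dendritic cells, and Irf8, a transcription factor of dendritic cell development. Between resistant and untreated tumours Siglech differed by -0.32 ± 0.24 (adjusted p = 0.726) and Irf8 by -0.45 ± 0.34 (adjusted p = 0.736). The Siglech probe had a mean log2 intensity of 15.71, against 9.65 for Irf8 and 15.45 for B2m, the class I light chain. Whether that probe reports Siglech alone was not tested. Of the 11 dendritic genes tested, 9 were below 0 between resistant and untreated tumours (median -0.32), and Cd207 (0.37) and Cd209a (0.04) were above 0. The melanocytic markers were present in every group, with list means between 1.24 and 3.48 in log2 ratio. Mitf, the master transcription factor of melanocytes, had log2 ratios of 1.41, 0.98, 1.27 and 1.51 at 4 days, against 0.70, 0.17, 0.56 and 0.23 in untreated tumours, without overlap. It rose at 4 days by 0.88 ± 0.20 (adjusted p = 0.0459) and was the only melanocytic gene of 10 to pass, and the call was lost in 16 of 26 alternatives (adjusted p between 0.0184 and 0.871).

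None of the brightest genes of the remaining lists passed between resistant and untreated tumours. Of the T cell genes, 7 of 8 were below 0 (median -0.35), and the brightest were Cd3e (-0.08) and Cd4 (0.12). Of the macrophage genes, 8 of 12 were below 0 (median -0.16), with Itgam at -0.21 and Csf1r at -0.17. Of the B cell genes, 4 of 6 were below 0 (median -0.01), with Cd79b at -0.003 and Ms4a1 at 0.21. Of the leukocyte genes, 2 of 8 were below 0 (median 0.05), with Arhgdib at 0.16 and Coro1a at 0.12. Of the melanocytic genes, 6 of 10 were below 0 (median -0.02), with Mitf at 0.09 and Sox10 at -0.04. Of the processing genes, 5 of 11 were below 0 (median 0.09), with Cst3, a cathepsin inhibitor, at 0.55 and Ctsb, a lysosomal protease, at -0.23. Of the costimulation genes, 4 of 5 were below 0 (median -0.45), with Cd80 at 0.17 and Icosl at -0.14.

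Of the transcription and interferon gamma list, Jak1, a kinase of the interferon receptors, fell at 4 days by 0.56 on the log2 scale (± 0.13, adjusted p = 0.0473), and 0 of the other 13 tested genes passed in any comparison with untreated tumours. Its 4-day and untreated arrays overlapped, and the call was lost in 19 of 26 alternatives (adjusted p between 0.0145 and 1). Among the brightest genes of that list, the receptor chain Ifngr1 differed by 0.06 between resistant and untreated tumours. Irf1, which interferon gamma induces, differed by -1.02 ± 0.31 between resistant and untreated tumours (adjusted p = 0.25), and Ifng, the cytokine itself, by -0.61 ± 0.47 (adjusted p = 0.747). The Irf1 difference from untreated tumours was of like size at 4 days (-1.06, adjusted p = 0.113) and at 60 days (-1.15, adjusted p = 0.0857). Of the factors that sit on the X and Y boxes, Nfya differed by -0.05 between resistant and untreated tumours. There Nfyb differed by 0.02, Nfyc by -0.07, Rfxank by 0.05 and Rfxap by -0.11, and Creb1 of the same list by -0.12. Nfya differed from untreated tumours by -0.28 at 4 days and at 60 days, and Creb1 by -0.31 and -0.22. Rfx5 was above background on at most 1 array. In class I presentation 13 of 13 genes were below 0 between resistant and untreated tumours (median -0.35), among them Psmb9, an immunoproteasome subunit, at -0.82 ± 0.36 (adjusted p = 0.472), B2m, the light chain, at -0.45 ± 0.29 (adjusted p = 0.662), and the heavy chain H2-K1 at -0.21. None of the class I, costimulation, processing, dendritic, macrophage, B cell or T cell genes passed in any of the 6 comparisons in the model without slide. With slide as a block, 3 of them passed. Calr and Pdia3 are among the 13 class I genes tested, and Ctsd is among the 11 processing genes tested. Of all 22000 genes, 645 passed at 4 days and 618 at 60 days with the block, each against untreated tumours. The 3 calls are therefore not read as particular to these lists. Calr, a chaperone of the endoplasmic reticulum, differed by -0.54 at 4 days (adjusted p = 0.00621 with the block, 0.0978 without) and by -0.35 at 60 days (adjusted p = 0.042 with the block, 0.235 without). Pdia3, a disulfide isomerase that helps load class I molecules, differed by -0.52 at 4 days (adjusted p = 0.037 with the block, 0.105 without). Ctsd, a lysosomal protease, differed by 0.87 at 4 days (adjusted p = 0.0259 with the block, 0.0534 without) and by 0.73 at 60 days (adjusted p = 0.0493 with the block, 0.097 without).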

How the data were processed

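Per the file headers, the scanner files hold mean spot and median background intensity read by Agilent Feature Extraction 10.7.3.1, its processed intensities, and their log10 ratio (Cy5 to Cy3). Flag columns (other) hold 0 or 1, per the file headers. The authors' deposited value table holds log2 ratios, uncentred (array medians -0.194 to -0.0638), with slope 0.993 on the scanner ratios in base 2 and 21.6% to 40.2% of values missing. Mean intensities were corrected by normexp (offset 50) and normalized by loess within arrays with limma 3.58.1 in R 4.3.3. Flagged spots (0.55%) were set missing. A probe needed Cy5 above background on at least 4 of 16 arrays, and the brightest probe stood for a gene. The 4 groups were fitted in 1 model without slide. The self-test on simulated data was passed. Its simulated noise was independent between genes and arrays and held no slide effect. It does not give the power for differences of the size seen here. Probe positions are those of the array design (mm9), and promoters are from RefSeq. Cy5 and Cy3 alone were taken after quantile normalization of mean intensities. The number of arrays limits the precision. The genes named were all 10 members, listed genes that passed or were brightest, and the 10 most alike genes, and others named were chosen after their values were seen. The members, lists and motifs were chosen with earlier results of these data known. Some items are not reported here.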

Additional observations from a re-analysis of the deposited data

Results flagged for a closer look

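H2-DMb1 in 4-day replicate 2 stood at 3.43, far from the other 3 tumours of its group, with a gap of 0.916 of the group's range, past Dixon's critical value. H2-Oa in untreated replicate 3 stood at 0.94, with a gap of 0.880 of its group's range. These were 2 of 40 groups examined, and chance flags about 1 in 20.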

How the results depend on the processing

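No member passed the threshold under any alternative in any comparison (lowest adjusted p 0.188 over 1557 values). Of these values 49 moved by more than their own SE, 110 changed sign, and 7 of those had a difference over 0.3. The resistant minus untreated difference of H2-Aa became 0.50 with Feature Extraction's processed signals and 0.50 in the deposited table, against -0.96 in Cy5 alone, and the cause was not tested. Leaving out 1 array, the median class II difference lay between -0.43 and -0.16 (4 days minus untreated), -0.25 and 0.0009 (60 days minus untreated), -0.60 and -0.23 (resistant minus untreated), -0.30 and 0.08 (resistant minus 4 days), -0.46 and -0.09 (resistant minus 60 days), and -0.04 and 0.24 (60 days minus 4 days).

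Counts over all genes moved more. Between 4-day and untreated tumours 295 genes became 645 with slide as a block, 12 with median centring, 131 with processed signals, 90 in the deposited table, 29 with the groups alone, and 45 (without untreated replicate 4) to 702 (without resistant replicate 1). Between 60-day and untreated tumours 180 became 618, 12, 77, 68 and 1258 in that order, and 19 (without untreated replicate 2) to 1137 (without resistant replicate 1). Without untreated replicate 3 these counts were 678 and 1100. Between resistant and untreated tumours 4 became 14 with the block, 1 with median centring, 1 with the groups alone, 12 in Cy5 alone, and 2 to 176 (176 without untreated replicate 3). Between resistant and 4-day tumours 1 became 8 with the block, 5 in the deposited table, 2 with the mean of probes, 0 with the groups alone, 5 in Cy5 alone, and 1 to 5 with an array left out. Between resistant and 60-day tumours 0 became 1 in the deposited table, and 0 to 1 with an array left out. Between 60-day and 4-day tumours 0 became 1 with the block, and 0 to 1 with an array left out. Jak1 and Mitf lost their calls in 19 and 16 of 26 alternatives. The numbers that end the titles recur across groups, and the labels do not say what they mark. Arrays of different groups with the same number deviated together with r over 0.1 in 7 of 17 pairs (median 0.03). Arrays of different groups with other numbers did so in 32 of 79 pairs (median -0.02). Whether arrays with the same number share more than that number was not tested. With that number as a replicate block, 24 genes passed at 4 days, 3 at 60 days and 3 in resistant tumours, each set against untreated ones, and 0 in the other comparisons, and 0 members passed. The Cy5 and number alternatives were chosen after seeing the data.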
